A study of Mus musculus with 22 samples.

Results

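The 9 genes described here are Tmem119, Siglech, Gpr34, Selplg, Olfml3, Aif1, Cd68, Trem2 and Tyrobp. They are used to recognise microglia and were taken by gene symbol from the 55276 symbols in the transcript tables. Their working name is surface and lysosome genes of homeostatic, or resting, microglia, although Aif1 encodes a cytoplasmic protein and Olfml3 a secreted one. Whether the microglia were in that state was not tested. The study used RiboTag mice, in which Cre recombinase switches on an epitope-tagged ribosomal protein (RPL22) so that ribosome-bound mRNA of 1 cell type can be immunoprecipitated from brain tissue and sequenced. It covered 6 cell types with 3 biological replicates each. All mice were 6 weeks old, carried Rpl22 Fl/+ and differed in the Cre driver, and no library of total tissue RNA was used here. Microglia (Tmem119-cre, inserted at the Tmem119 gene), astrocytes (Aldh1-cre in the labels, an Aldh1l1 transgene) and layer V neurons (Rbp4-Cre) came from cortex. Dentate gyrus granule cells (Rbp4-Cre) and inhibitory interneurons (Dlx6a-Cre) came from hippocampus, and cerebellar granule cells (Gabra6-Cre) from cerebellum. Cre in the microglial and astrocyte lines was induced with tamoxifen given by gavage from 3 weeks of age, and each interneuron replicate pooled the hippocampi of a pair of mice.

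Microglia are the resident macrophages of the brain parenchyma. TREM2, a surface receptor for lipids and lipoproteins, and Siglec-H have short tails and signal through TYROBP (also called DAP12), an adaptor whose cytoplasmic motif recruits the kinase SYK. TMEM119, GPR34 (a receptor for lysophosphatidylserine) and SELPLG (a ligand of selectins) are other surface proteins of these cells, OLFML3 is an olfactomedin-like secreted glycoprotein, AIF1 (IBA1) binds calcium and actin, and CD68 is a heavily glycosylated protein of the lysosomal membrane of phagocytes. Because Tmem119 also drives the Cre of the microglial line, its level there is measured in the cells that its own locus selected.

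The files hold estimated counts and TPM, a relative transcript level in which counts are divided by transcript length and brought to a common total in every library. The 18 libraries used, 1 per replicate, held between 38270477 and 71440915 estimated counts, with a median of 54631726. The microglia markers Cx3cr1, P2ry12 and Csf1r together reached 6729 to 7252 TPM in the microglia libraries and at most 30.7 TPM in any other library. The microglia libraries in turn held 72.0 to 97.3 TPM of 4 astrocyte markers, 313.8 to 351.9 TPM of 3 neuronal markers and 376.6 to 450.7 TPM of 4 oligodendrocyte markers. Sums of vascular markers were higher in the microglia libraries than in any other: 4 endothelial markers summed to 258.1 to 382.1 TPM, against at most 55.1 TPM elsewhere, and 3 pericyte markers to 213.6 to 304.3 TPM, against at most 105.1 TPM. The pericyte marker Pdgfrb went the other way, at 7.11 to 10.4 TPM in microglia and 25.5 to 28.6 TPM in astrocytes. The part of vascular cells in the results was not tested. Sequencing was done in 2 batches, and all microglia and interneuron libraries were in batch 2, while the libraries used for the other 4 cell types were in batch 1. One replicate of each of those 4 cell types was also sequenced in batch 2. The batch 2 library of layer V replicate 1 is labelled male and the batch 1 library female. Xist, the non-coding RNA of the inactive X chromosome, was at 2.13 and 2.45 TPM in these libraries, and Ddx3y, a Y-linked gene, at 0.0340 and 0.0859 TPM. The batch 2 library entered only comparisons between batches and alternatives.

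On the GRCm38 build the genes lie on 6 chromosomes. Tmem119 (chr5:113793729-113800516, minus strand) and Selplg (chr5:113818536-113832644, minus strand) are 18019 bases apart, with 1 annotated gene, Gm19931, between them. Trem2 (chr17:48346401-48354147, plus strand) and Aif1 (chr17:35170991-35176068, minus strand) share chromosome 17. Siglech (chr7:55768178-55778925) and Tyrobp (chr7:30413760-30417585) lie on the plus strand of chromosome 7. The others are Gpr34 (chrX:13632089-13640858, plus strand), Olfml3 (chr3:103722222-103738001, minus strand) and Cd68 (chr11:69664213-69666153, minus strand). Of the 9, Gpr34 alone overlaps another annotated gene, Cask on the opposite strand. Cask was at a mean of 54.1 TPM in microglia and 93.2 TPM in cerebellar granule cells, the cell type where Gpr34 was lowest.

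RefSeq promoters were given for 5 of the 9 genes (Olfml3, Siglech, Cd68, Aif1 and Trem2). Because the members rise together in 1 cell type, these promoters, from 250 bases before to 50 after the start site, were searched on both strands for GAGGAA, the core bound by the myeloid factor PU.1, for GAGGAAGT, a longer form that contains it, and for TCACGTGA, the core of the lysosomal CLEAR element. GAGGAA was present in 4 of the 5 and in 28.3% of 32851 RefSeq promoters. GAGGAAGT was in 0 of the 5 and in 3.2% of all promoters, and TCACGTGA was in 1 of the 5, Siglech, and in 0.974% of all promoters. The 250 bases before the start are shown for the receptor Siglech (chr7:55767934-55768183, plus strand), the lysosomal Cd68 (chr11:69666171-69666420, minus strand) and Trem2 (chr17:48346151-48346400, plus strand), from RefSeq GRCm38.p6, 5′ to 3′ on the strand of the gene. Capitals mark TCACGTGA in Siglech, GAGGAA in Cd68, and TTCCTC, which is GAGGAA read on the opposite strand, in Trem2.
Siglech: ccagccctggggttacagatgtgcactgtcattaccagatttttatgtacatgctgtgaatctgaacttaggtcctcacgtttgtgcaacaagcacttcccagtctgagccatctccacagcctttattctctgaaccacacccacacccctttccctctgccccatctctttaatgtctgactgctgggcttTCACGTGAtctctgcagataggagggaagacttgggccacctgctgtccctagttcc
Cd68: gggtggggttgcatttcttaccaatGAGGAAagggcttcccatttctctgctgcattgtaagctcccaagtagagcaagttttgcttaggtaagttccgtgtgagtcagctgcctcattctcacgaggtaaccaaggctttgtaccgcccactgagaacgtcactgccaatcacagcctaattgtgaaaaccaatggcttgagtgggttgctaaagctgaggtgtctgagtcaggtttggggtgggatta
Trem2: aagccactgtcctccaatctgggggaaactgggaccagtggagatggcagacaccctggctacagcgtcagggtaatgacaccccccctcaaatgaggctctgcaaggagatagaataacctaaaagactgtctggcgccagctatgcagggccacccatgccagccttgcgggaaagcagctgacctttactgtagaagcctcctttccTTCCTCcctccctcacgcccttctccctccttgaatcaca
The Siglech match to TCACGTGA begins 57 bases before the start site. In Trem2 the match to GAGGAA begins 40 bases before the start and in Cd68 225 bases before it. Further matches to GAGGAA began 4 bases before the start of Siglech, reaching past it, 7 bases before that of Aif1 and 29 bases after that of Cd68. These matches are letters only, and no binding was measured.

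All 9 genes were abundant in microglia, and elsewhere they were found at traces. The lowest microglial value of any member was 256.5 TPM (Gpr34), and the highest of the 135 values outside microglia was 9.75 TPM (Tyrobp in an astrocyte library). Together they made up 12040 to 12800 TPM in the microglia libraries, or up to 1.28% of all TPM. Their sum was 31.9 to 45.1 TPM in astrocytes, 10.8 to 13.5 TPM in layer V neurons and 11.8 to 12.5 TPM in dentate gyrus granule cells. It was 9.21 to 10.6 TPM in interneurons and 1.10 to 1.15 TPM in cerebellar granule cells. In bulk material such as this, fewer cells of a type and less RNA per cell cannot be told apart. In an edgeR quasi-likelihood fit over 20498 genes, 9 of 9 were higher in microglia than in the mean of the other 5 cell types, where 43.2% of all genes tested were higher. The median log2 fold change was 10.42 for the 9 genes and 0.09 for all genes tested. By size of the fold change they ranked between 10 (Selplg) and 148 (Cd68) of 20498. All 9 were also higher than in astrocytes, against a background of 36.2%, and higher than in layer V neurons, against 42.6%. Batch and cell type coincide for the microglia libraries among the 18. Within batch 2 alone, each cell type other than microglia and interneurons had 1 library. There the fold changes of the 9 genes kept their direction, within the log2 range of 7.64 to 11.95 over all alternatives run. The part of batch was not tested.

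**Figure D1:**
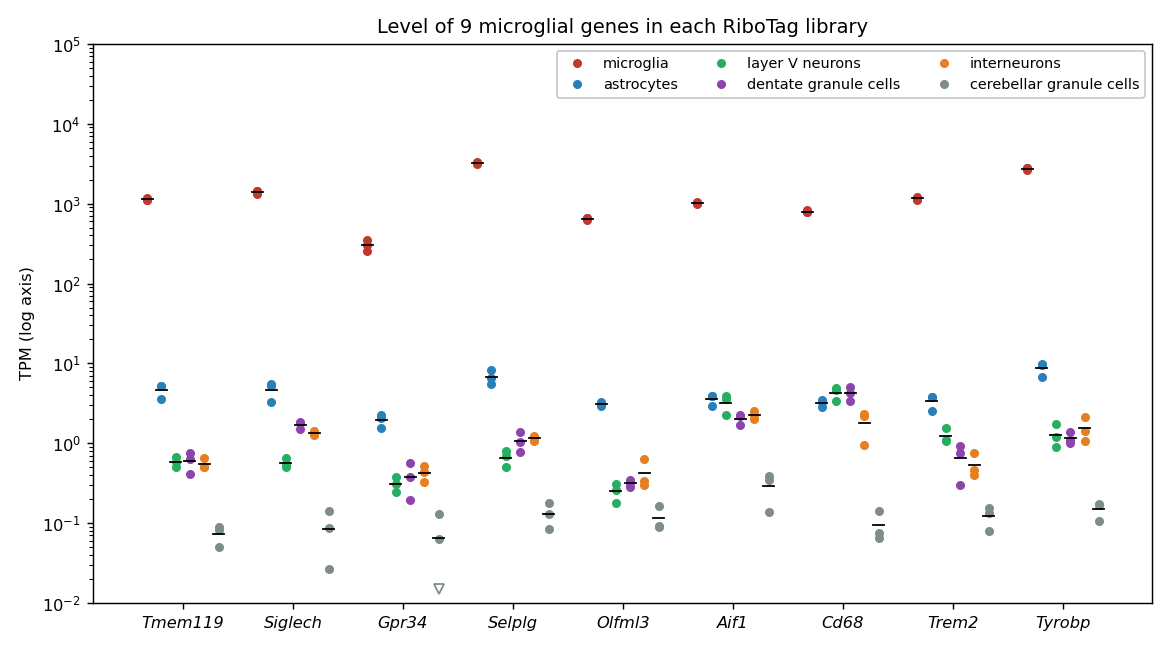
TPM (log axis) of the 9 genes in each of 18 libraries. Each point is 1 library, coloured by cell type, black bars are means of 3 replicates, and the open triangle is a Gpr34 value of 0 in cerebellar granule cell replicate 2. The microglia points lie between 256.5 and 3293 TPM and every other point lies below 10 TPM.

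Tyrobp, the adaptor, was the most abundant member after Selplg. It reached 2758, 2792 and 2668 TPM in microglia replicates 1, 2 and 3 (2740 ± 64.05, SD, n = 3), and 9.75, 9.45 and 6.77 TPM in the astrocyte replicates (8.66 ± 1.64). The other cell types ran from 0.107 TPM in a cerebellar library to 2.11 TPM in an interneuron library. Microglia stood far above all 15 other libraries, and the astrocyte libraries above the 12 neuronal ones. Microglia exceeded the mean of the other cell types by a log2 fold change of 11.26 ± 0.07 (SE; edgeR adjusted p = 9.4e-27). Below astrocytes, interneurons, layer V neurons and dentate gyrus granule cells overlapped and neighbouring cell types did not differ beyond their spread, while cerebellar granule cells, with 5 estimated counts over 3 libraries, were lower than dentate gyrus granule cells (edgeR adjusted p = 4.5e-05).

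Trem2, the receptor, was at 1116, 1218 and 1150 TPM in microglia (1161 ± 52.3, SD, n = 3) and at 3.74, 3.75 and 2.53 TPM in astrocytes (3.34 ± 0.704). In layer V neurons it was at 1.54, 1.10 and 1.06 TPM and in dentate gyrus granule cells at 0.749, 0.297 and 0.934 TPM. These libraries do not overlap, but in the count fit the difference between layer V and dentate gyrus granule cells did not pass the test (log2 fold change 0.38, edgeR adjusted p = 0.22). Interneurons held 0.397, 0.749 and 0.464 TPM and cerebellar granule cells 0.0804 to 0.153 TPM, a gap that did not pass the test in the fit of counts either (edgeR adjusted p = 0.099). Trem2 had the log2 fold change 9.82 ± 0.10 (SE) in microglia over the other cell types.

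Siglech, the lectin that pairs with TYROBP, was at 1424, 1452 and 1337 TPM in microglia (1404 ± 60.1, SD, n = 3) and 5.57, 5.20 and 3.28 TPM in astrocytes (4.68 ± 1.23). Unlike in Trem2, the hippocampal neurons came next: dentate gyrus granule cells held 1.52, 1.82 and 1.79 TPM and interneurons 1.42, 1.26 and 1.33 TPM. Layer V neurons, from cortex, held 0.502, 0.549 and 0.661 TPM. No layer V library reached a hippocampal one. Dentate gyrus granule cells, in the same batch as layer V neurons, exceeded them by a log2 fold change of 1.22 (edgeR adjusted p = 3.8e-05). Interneurons, in the other batch, exceeded them by 0.82 (edgeR adjusted p = 0.0023), but layer V replicate 1 itself went from 0.502 TPM in batch 1 to 0.937 TPM in batch 2, and within batch 2, with 1 layer V library whose spread was taken from the other groups, the difference was 0.31 and did not pass the test (edgeR adjusted p = 0.20). The difference between dentate gyrus granule cells and interneurons did not pass the test (0.40, edgeR adjusted p = 0.065).

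Tmem119, the transmembrane protein whose gene drives the microglial Cre, was at 1101, 1173 and 1118 TPM in microglia (1130 ± 37.9, SD, n = 3). It was at 5.28, 5.16 and 3.55 TPM in astrocytes, at 0.408 to 0.762 TPM across the layer V, dentate gyrus and interneuron libraries, and at 0.0497 to 0.0881 TPM in cerebellar granule cells. The astrocyte libraries lay above the 9 libraries of those neurons, which overlapped one another, and the cerebellar ones lay below all of them. Gpr34, the lysophosphatidylserine receptor, was the least abundant member in microglia, with 302.3, 350.3 and 256.5 TPM (303.0 ± 46.9, SD, n = 3), and the most variable there: its coefficient of variation was 15.5%, against 2.00 to 4.50% for the other 8 genes. It was at 2.23, 2.06 and 1.54 TPM in astrocytes and at 0.194 to 0.557 TPM in the layer V, dentate gyrus and interneuron libraries. Its 3 cerebellar libraries held 7 estimated counts in all (95% exact Poisson interval 2.81 to 14.4), with a value of 0 in replicate 2.

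Selplg, the selectin ligand, was the most abundant member in microglia, at 3187, 3293 and 3110 TPM (3197 ± 91.8, SD, n = 3), and had the largest fold change of the 9, 11.86 ± 0.07 (SE) on the log2 scale (edgeR adjusted p = 1.1e-26). Astrocytes held 8.27, 6.59 and 5.48 TPM and layer V neurons 0.685, 0.803 and 0.498 TPM. Dentate gyrus granule cells and interneurons overlapped at 0.779 to 1.40 TPM. Selplg was the member with the smallest share of its microglial level in each of the other 5 cell types. Olfml3, the secreted glycoprotein, was at 662.6, 652.4 and 621.4 TPM in microglia and 2.89, 3.29 and 3.01 TPM in astrocytes. It ran from 0.180 to 0.631 TPM in layer V neurons, dentate gyrus granule cells and interneurons, whose libraries overlapped. It was also the member for which astrocytes stood highest above layer V neurons.

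Aif1 and Cd68 had another order. Aif1, the cytoplasmic calcium-binding protein, was at 1036, 1034 and 999.6 TPM in microglia (1023 ± 20.4, SD, n = 3), 3.91, 3.92 and 2.90 TPM in astrocytes and 3.88, 3.54 and 2.26 TPM in layer V neurons. The astrocyte and layer V libraries overlapped. Interneurons followed with 2.00, 2.24 and 2.51 TPM, dentate gyrus granule cells with 2.23, 1.68 and 2.17 TPM, and cerebellar granule cells with 0.137 to 0.393 TPM. Cd68, the lysosomal protein, was at 777.7, 832.4 and 780.3 TPM in microglia (796.8 ± 30.9). It was the member for which the cell type next in order was not astrocytes: layer V neurons held 4.89, 4.58 and 3.42 TPM and dentate gyrus granule cells 4.30, 5.00 and 3.38 TPM, against 3.45, 3.26 and 2.88 TPM in astrocytes. The libraries of these 3 cell types overlapped, and neither neighbouring pair passed the test (edgeR adjusted p = 0.069 between layer V and dentate gyrus granule cells and 0.33 between dentate gyrus granule cells and astrocytes). Interneurons were lower, at 0.954, 2.16 and 2.33 TPM, and cerebellar granule cells lower again at 0.0651 to 0.140 TPM. Cd68 had the smallest fold change of the 9 in microglia over the other cell types, 9.33 ± 0.07 (SE) on the log2 scale (edgeR adjusted p = 1.5e-25).

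Across the 5 cell types outside microglia, 9 of 9 genes differed by the edgeR F test, against 93.2% of all genes tested. Among the 45 pairs of cell types that are neighbours in the order of a member's mean TPM, 29 differed and 16 did not, where 52.2% of such pairs over all genes tested differed. All 9 pairs with microglia at the top differed, and cerebellar granule cells were last for 9 of 9 genes and differed from the cell type above them for 8, the exception being Trem2. Of the 27 pairs between these ends, 12 differed. For 4 of the 16 undecided pairs the fold change of the count fit had the opposite sign to the difference of mean TPM.

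Astrocytes and layer V neurons come from the same tissue, and their comparison was added after the levels were seen. Astrocytes were higher for 7 of 9 genes, against 39% of all genes tested. The largest differences were those of Olfml3 (14.2-fold), Selplg (11.5-fold) and Tmem119 (8.99-fold). Tyrobp was 7.40-fold higher, Siglech 6.84-fold, Gpr34 6.33-fold and Trem2 2.61-fold. For Aif1 the log2 fold change was 0.32 (95% interval 0.01 to 0.63) and did not pass the test after adjustment (edgeR adjusted p = 0.056). Leaving out 1 library gave 0.10, without layer V replicate 3, to 0.45, without layer V replicate 2, the latter past the threshold (edgeR adjusted p = 0.016). For Cd68 it was -0.14 (95% interval -0.40 to 0.12; edgeR adjusted p = 0.31).

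Set against the mean microglial level, the trace in astrocytes lay between 0.212% (Selplg) and 0.641% (Gpr34), with a median over the 9 genes of 0.350%. The median of 24 other homeostatic genes in the same libraries was 0.535%. Within each astrocyte library the highest member percentage was 2.85 to 3.29 times the lowest. This spread between members was narrower than in any layer V, dentate gyrus or interneuron library. Astrocyte replicate 3 had the lowest value of 8 of the 9 genes. The same library had the lowest sums of the microglia markers Cx3cr1, P2ry12 and Csf1r (22.1 TPM, against 30.7 and 28.9), of 9 markers of border-associated macrophages (4.01 TPM, against 4.56 and 5.72) and of 7 blood myeloid markers (19.0 TPM, against 25.3 and 53.8). It was not lowest for myeloid markers alone: the sums of endothelial (39.7 TPM, against 55.1 and 49.6), neuronal (638.4 TPM, against 774.8 and 878.5) and oligodendrocyte markers (676.6 TPM, against 857.4 and 784.9) were lowest there too. Other sums went the other way. Interneuron (95.3 TPM, against 67.6 and 88.8), layer V (57.0 TPM, against 56.3 and 52.0) and cerebellar granule cell markers (9.06 TPM, against 6.31 and 7.39) were highest in that library. Pericyte markers lay between (97.7 TPM, against 91.9 and 105.1). The part of other cells in the astrocyte traces was not tested.

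In neurons the proportions were different. In layer V neurons the percentages ran from 0.0207% (Selplg) to 0.540% (Cd68), with a median of 0.0517%, and in dentate gyrus granule cells from 0.0334% (Selplg) to 0.530% (Cd68), with a median of 0.0568%. From TMM-scaled CPM in place of TPM the dentate gyrus median was 0.107%, which lies above that of interneurons (0.0657% on the same scale) and not below it. The highest member was 22.9 to 28.6 times the lowest within a layer V library and 9.72 to 24.5 times within a dentate gyrus library. Aif1 came second in both, at 0.315% and 0.198%. The microglia markers did not share the place of Cd68: P2ry12 was at 0.0455% of its microglial level in layer V neurons, Cx3cr1 at 0.0398% and Csf1r at 0.0245%, against 0.717%, 0.360% and 0.261% in astrocytes. Of the 24 other homeostatic genes, 4 exceeded the percentage of Cd68 in layer V neurons (Cst3, Tgfbr1, Mertk and Ptprc) and 3 in dentate gyrus granule cells (Tgfbr1, Mertk and Ptprc). The border macrophage markers summed to 1.81 to 2.38 TPM in layer V neurons and the blood myeloid markers to 0.512 to 0.916 TPM. Their part in the neuronal traces was not tested.

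In interneurons the percentages ran from 0.0363% (Selplg) to 0.228% (Cd68), with a median of 0.0655%. Cd68 was lower in interneurons than in layer V neurons by a log2 fold change of -1.75 (edgeR adjusted p = 1e-08), as were Trem2 and Aif1. Within batch 2 the differences were -1.85 for Cd68, -1.30 for Trem2 and -0.85 for Aif1. That fit holds 1 layer V library, of replicate 1, with its spread taken from other groups. In batch 1 replicate 1 was the highest layer V library for each of these 3 genes. Siglech and Selplg were higher in interneurons across the batches (0.82 and 0.61), but within batch 2, with the same 1 layer V library, they differed by 0.31 and -0.07. In cerebellar granule cells the percentages were 0.00408% (Selplg) to 0.0286% (Aif1), with a median of 0.0105%. The 3 cerebellar libraries together held 5 (Tyrobp) to 47 (Trem2) estimated counts per member. Such counts are imprecise: the 12 counts of Siglech have a 95% exact Poisson interval of 6.20 to 20.96, which covers counting error only.

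**Figure D2:**
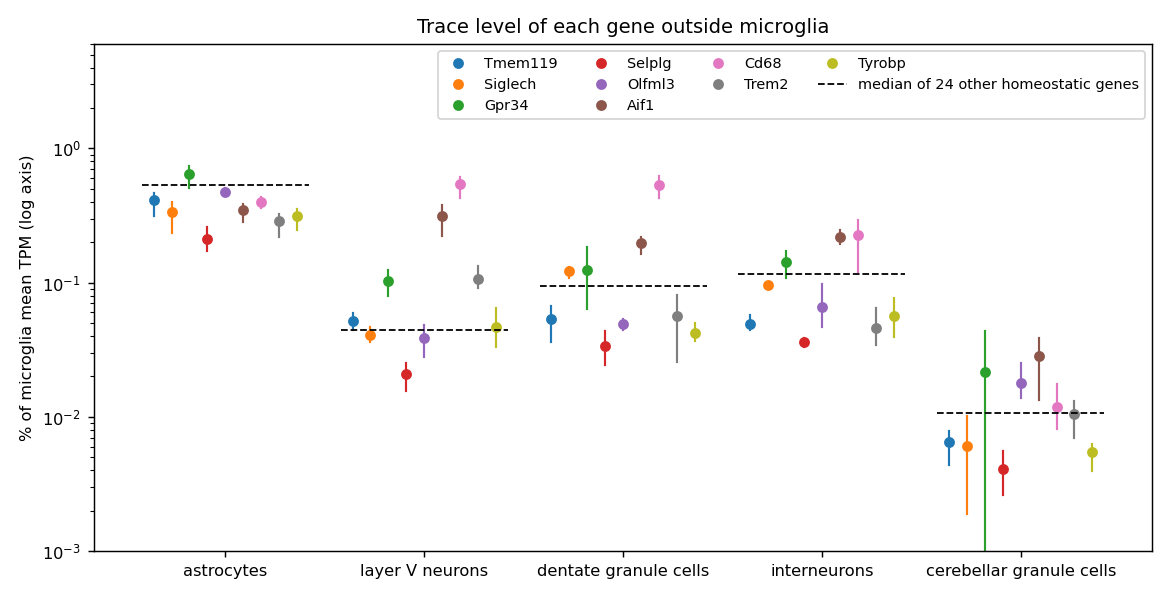
Level of each gene outside microglia as a percentage of its mean TPM in microglia (log axis). Points are means of 3 replicates, lines run from the lowest to the highest library (that of Gpr34 in cerebellar granule cells runs off the axis, to 0), and dashed lines are the median of 24 other homeostatic genes. In layer V neurons and dentate gyrus granule cells Cd68, at 0.540% and 0.530%, lies above the other 8 genes, while in astrocytes the 9 genes lie between 0.212% and 0.641%.

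The annotated transcripts that carried the counts also changed with the cell type, as assigned by kallisto. In microglia 80.8% of Trem2 counts fell on Trem2-201, a protein-coding transcript of 5 exons, and 2.67% on Trem2-203, which is annotated as a retained intron. Trem2-203 spans the first intron in 1 exon of 2368 bases (chr17:48346440-48348807) and has a longer last exon (chr17:48352008-48354147). It carried 31.0% of Trem2 counts in astrocytes, 40.7% in layer V neurons, 75.1% in dentate gyrus granule cells and 80.4% in interneurons. In cerebellar granule cells it carried 100% of the 47 counts. These are shares of 3 libraries summed, and Trem2-203 is longer than Trem2-201 (4784 against 1088 bases). Of the gene's TPM, Trem2-203 held 38.3% in dentate gyrus granule cells and 32.3% in interneurons. In TPM, protein-coding transcripts made up 98.9% of Trem2 in microglia, 89.2% in astrocytes, 87.4% in layer V neurons, 53.7% in the dentate gyrus, 20.7% in interneurons and 0% in cerebellar granule cells. The mean Trem2 trace in interneurons and cerebellar granule cells was therefore mostly assigned to transcripts with no annotated protein. Shares varied between libraries: of the gene's TPM, the coding Trem2-202 held 0 to 58.3% in interneurons. Trem2-201 held 0 to 67.3% in dentate gyrus granule cells.

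For Cd68 and Aif1 the main coding transcript of microglia also carried a smaller share of summed counts in other cells. Cd68-201, a coding transcript, carried 99.6% of Cd68 counts in microglia, 96.7% in astrocytes, 88.1% in layer V neurons, 85.7% in dentate gyrus granule cells and 74.3% in interneurons. In these 3 neuron types the remainder was mainly Cd68-203, a processed transcript with 11.9%, 12.0% and 24.1%. Aif1-203, also coding, carried 96.1% of Aif1 counts in microglia, 76.9% in astrocytes and 48.4% in layer V neurons, where Aif1-202, a processed transcript, carried 23.7%. In TPM, the protein-coding share in layer V neurons was 77.2% for Cd68 and 58.4% for Aif1, below that of Trem2 there. These shares varied between layer V libraries: Cd68-203 held 0 to 39.5% of the TPM of its gene and Aif1-203 32.9 to 74.9%. The protein-coding share was not lower in every cell type. For Cd68 it was 99.5% in astrocytes and 100% in cerebellar granule cells, against 99.1% in microglia. For Aif1 it was 96.0% in cerebellar granule cells, against 92.7% in microglia. Transcript classes were not uniform in microglia either: Olfml3-202, annotated as a retained intron, carried 70.7% of microglial Olfml3 counts, and Siglech-204, annotated as a target of nonsense-mediated decay, 38.3% of those of Siglech. By contrast Selplg-201 and Tmem119-201 carried 99.4% and 99.9% of their genes' counts.

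**Figure D3:**
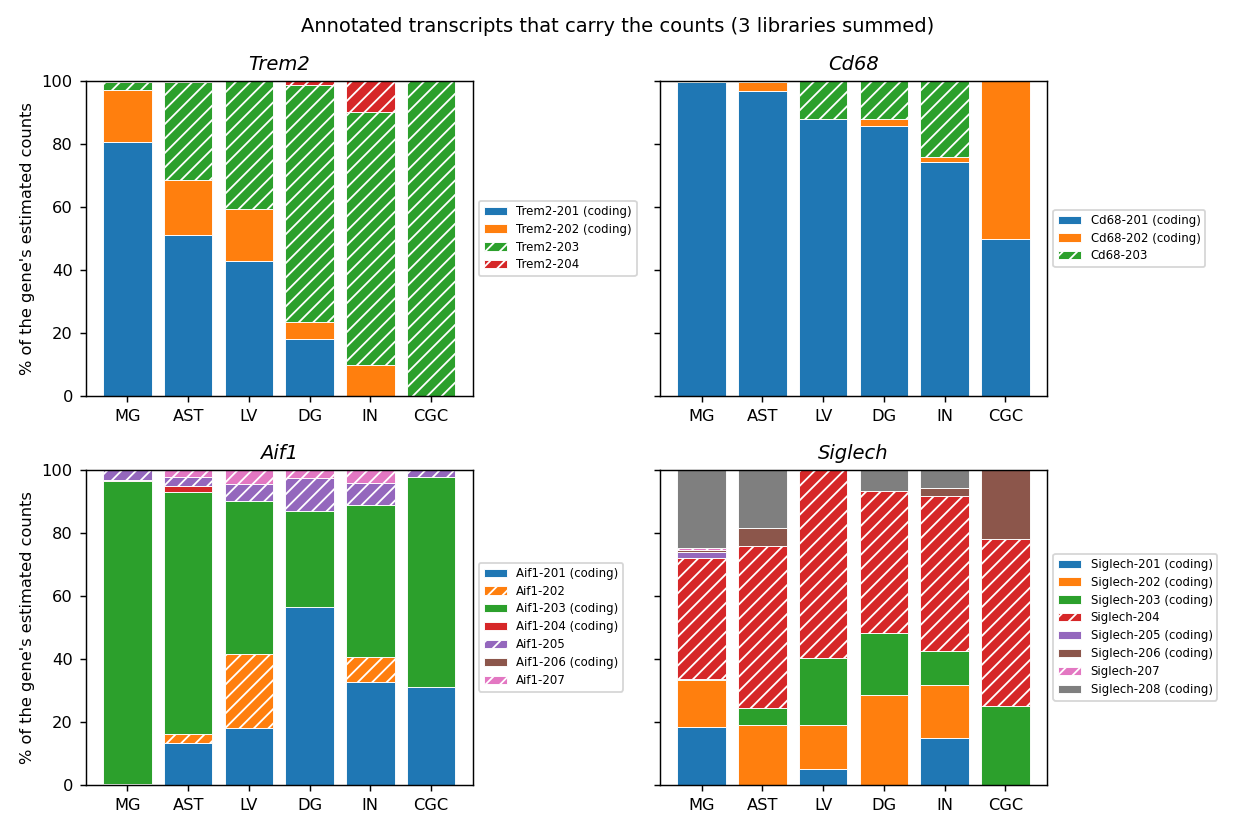
Share of each gene's estimated counts (percent, 3 libraries summed) assigned to each annotated transcript of Trem2, Cd68, Aif1 and Siglech. Bars are microglia (MG), astrocytes (AST), layer V neurons (LV), dentate gyrus granule cells (DG), interneurons (IN) and cerebellar granule cells (CGC), and hatching marks transcripts not annotated as protein coding. Trem2-203 grows from 2.67% in microglia to 100% in cerebellar granule cells, while Cd68-201 still holds 88.1% in layer V neurons.

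Most partners of TREM2 and TYROBP in signalling were also higher in microglia. Of 20 genes listed for the pathway, 18 passed the filter on low counts, and of these 16 were higher and 2 lower in microglia than in the mean of the other cell types, with a median log2 fold change of 8.19, where 43.2% of all genes tested were higher. By mean TPM 13 of the 18 were highest in microglia and 5 elsewhere (Vav3, Grb2, Cd300lb, Apoe and Clu). Sirpb1a and Ms4a4a were not tested. Among kinases and lipid enzymes, Syk rose by a log2 fold change of 8.61, Btk by 11.16, Pik3cg by 10.57, Plcg2, a phospholipase, by 7.78 and Inpp5d, a lipid phosphatase, by 9.61. Among adaptors and regulators, the exchange factor Vav1 rose by 10.51, Pik3ap1 by 9.56, the phosphatase Ptpn6 by 9.98 and the adaptor Lat2 by 7.59. The receptor Clec5a, which also uses TYROBP, rose by 10.87 and Ms4a6d by 9.90. Cd300lb, another such receptor, was 4.28 above the mean of the others but was near the floor, at 0.475 TPM in microglia and 0.624 TPM in cerebellar granule cells.

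Other members of that list moved less. The adaptor Grb2 rose by 0.63, the sheddase Adam10 by 1.35 and the related Adam17 by 4.38. Apoe, a lipoprotein ligand of TREM2, was 3.61 higher in microglia than in the mean of the others but was at 30680 TPM in astrocytes against 2436 TPM in microglia. The lower genes were Vav3 (-2.23) and Clu (-1.83), another ligand.

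Over all genes tested, 43.2% were higher in microglia and the median log2 fold change was 0.09. Of 24 other homeostatic genes, 24 were higher in microglia, with a median log2 fold change of 10.25. Among the most abundant were Cst3, a protease inhibitor, at 52120 TPM, the lysosomal protease Ctss at 8931 TPM and the complement gene C1qb at 8158 TPM. Of 23 lysosomal genes other than Cd68, 20 were higher, 2 lower (Laptm4b and Mcoln1) and 1, Lamp5, did not pass the test, with a median of 2.03. By mean TPM 16 of the 23 were highest in microglia. Among the most abundant were the protease Ctsd at 7435 TPM (log2 fold change 5.18), the saposin precursor Psap at 2890 TPM (1.17) and Laptm5 at 2570 TPM (11.77). Laptm5 also stands in the list of homeostatic genes. Cd68, at 9.33, exceeded all listed lysosomal genes other than Laptm5.

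Genes of activated microglia were 14 of 15 higher, against the same 43.2% of all genes, with a median of 5.25, Gpnmb being lower (-0.58). Of these 14, Axl and Csf1 had a higher mean TPM in another cell type: Axl was at 12.4 TPM in microglia and 200.8 TPM in astrocytes, and Csf1 at 11.6 TPM in microglia and 21.1 TPM in dentate gyrus granule cells. Cd9, a tetraspanin, was the most abundant at 685.4 TPM, and Spp1 (osteopontin) varied between the microglia libraries from 35.6 to 171.8 TPM. The chemokine Ccl4 was at 22.5 TPM and Cd83 at 55.3 TPM. Of 9 border macrophage markers 8 were higher, with a median of 2.30, though 4 of the 9 had their highest mean elsewhere. Levels were low: Mrc1, the mannose receptor, was the most abundant at 7.41 TPM, followed by Cbr2 at 2.73 TPM. Of 7 blood myeloid genes 4 were higher, a share near the 43.2% of all genes, with a median of 3.94. These were the lysozyme Lyz2 at 260.9 TPM, Plac8 at 5.00 TPM, Ly6c2 at 1.70 TPM and Ccr2 at 1.15 TPM, while the neutrophil genes S100a8 and S100a9 and the gene Hp did not pass the test.

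**Figure D4:**
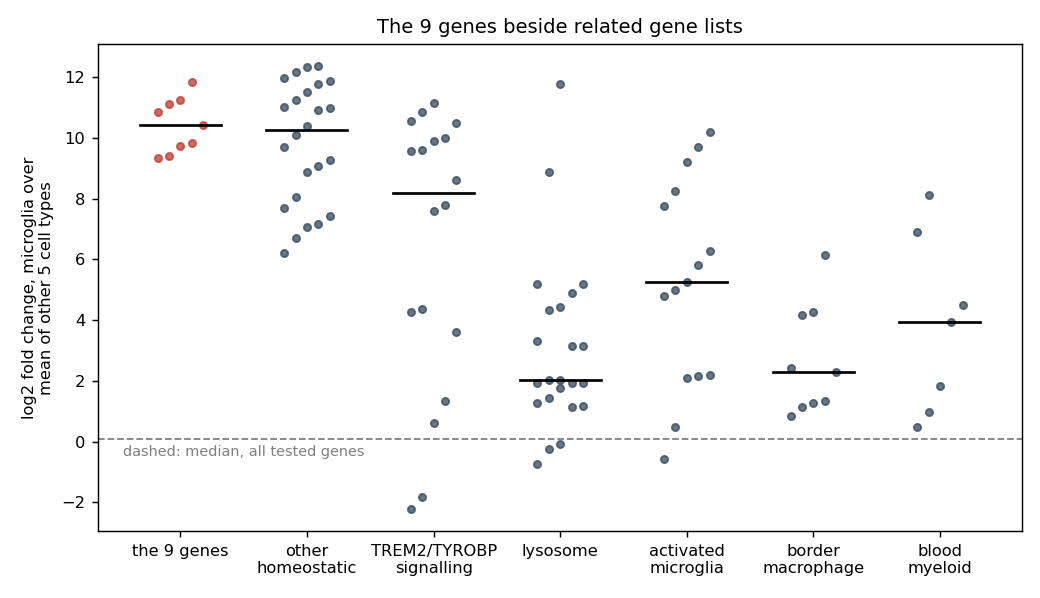
Log2 fold change, microglia over the mean of the other 5 cell types, for the 9 genes and the tested members of 6 related lists. Each point is a gene, solid bars are list medians and the dashed line is the median of all genes tested, 0.09. The 9 genes (median 10.42) lie with the other homeostatic genes (10.25), above the medians of the lysosomal (2.03) and border macrophage (2.30) lists.

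The genes whose pattern was most like the mean of the 9 were found by Pearson's r of log2(TPM + 0.1). Over all 18 libraries they included Fcrls (0.998), Cx3cr1, Rcsd1, Rnase4, C1qc, Laptm5, C1qa, Csf1r and C1qb (0.995) among 8997 genes. Over the 15 libraries outside microglia they included Cbr3 (0.993), C1qc (0.992), Kifc3, Ppp1r3d, Mboat2, Fcrls, Aldh2, C1qb and Laptm5 (0.987) among 14689 genes. The points share cell types, since 3 libraries come from each. Among the members themselves, over the 15 libraries, Tyrobp (0.978), Tmem119 (0.975) and Selplg (0.971) followed the mean of the 9 most closely and Cd68 (0.786) and Aif1 (0.874) least, of the 7 genes with a mean of at least 1 TPM there. Each member is itself part of that mean. Even so, 24 genes outside the 9 had a higher r than Tyrobp, 30 than Tmem119 and 43 than Selplg. For Aif1 there were 745 such genes and for Cd68 1544. The pair least alike was Olfml3 and Cd68 (0.464), while Aif1 and Cd68 were at 0.927.

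The 4 replicates sequenced in both batches show how well the traces were repeated. The summed TPM of the 9 genes was 42.7 in batch 1 and 42.1 in batch 2 for astrocyte replicate 2, 13.5 and 12.95 for layer V replicate 1, 12.5 and 14.1 for dentate gyrus replicate 3, and 1.13 and 1.62 for cerebellar replicate 3. Batch 2 over batch 1 was thus 0.985, 0.960, 1.13 and 1.43. Single members moved more, in both directions. By member the ratio ran from 0.791 (Siglech) to 1.16 (Gpr34) in the astrocyte replicate and from 0.463 (Gpr34) to 1.865 (Siglech) in the layer V one. It ran from 0.655 (Gpr34) to 1.40 (Siglech) in the dentate gyrus replicate and from 0.385 (Gpr34) to 2.60 (Selplg) in the cerebellar one. Cd68, the member with the high neuronal trace, was at 4.89 and 4.51 TPM in the layer V replicate and at 3.38 and 3.72 TPM in the dentate gyrus replicate. By share of its microglial level it was the highest member of both replicates in both batches.

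**Figure D5:**
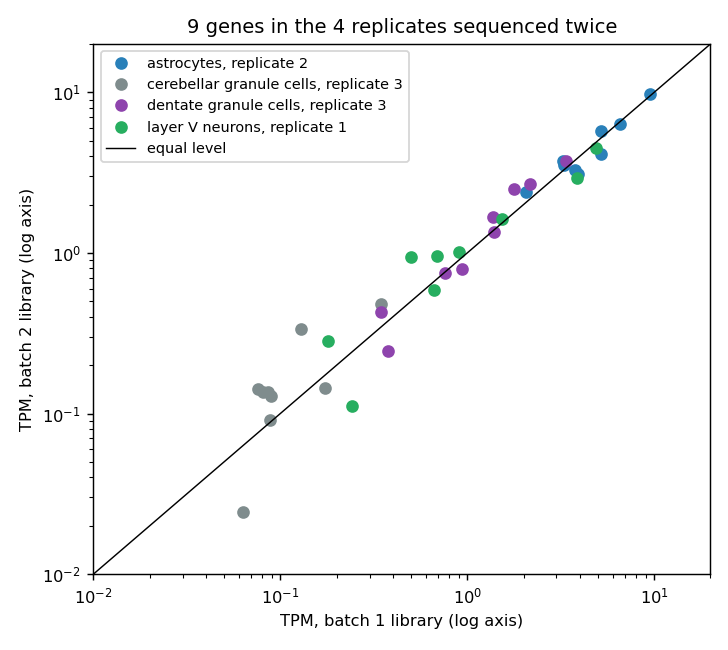
TPM of the 9 genes in the batch 1 library (x axis, log) and the batch 2 library (y axis, log) of the 4 replicates sequenced in both batches. Each point is a gene, coloured by cell type, and the line marks equal levels. The points farthest from the line lie below 1 TPM.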

How the data were processed

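Ribosome-bound mRNA was sequenced from 6 cell types of mouse brain (22 libraries from 18 biological replicates, 4 of them sequenced in 2 batches). Per the submitters' processing notes and the methods, the authors trimmed reads with cutadapt 3.5 and pseudo-aligned them with kallisto 0.46.2 to GENCODE M24 transcripts (GRCm38), from libraries made with a stranded mRNA kit. The strand setting of kallisto was not given in the sources used here. The deposited tables hold estimated counts, not normalized, and TPM per transcript, which the authors' quantification divides by length and brings to a common library total. The authors' differential test was not run.

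Both units were summed over a gene's transcripts by symbol. Groups came from the sample labels, with 1 library per replicate (that of batch 1 where a replicate had both). Estimated counts were rounded and tested with edgeR 4.0.16 (TMM, filterByExpr, robust quasi-likelihood, all 18 libraries and 6 cell types in 1 fit, no covariate) in R 4.3.3, and p-values were adjusted over 20498 genes by Benjamini-Hochberg, with a threshold of 0.05. Values are means ± SD of 3 replicates, which the methods describe as biological replicates. Intervals cover counting error only, or for fold changes the spread of the fit. Depth was 38270477 to 71440915 estimated counts a library, so traces of a few counts are imprecise. Counts were simulated for 20498 genes, 200 of them changed in microglia against the other cell types. Of these 200, 194 were recovered, and 5 unchanged genes were called. The simulation gave all genes 1 spread and the other 5 cell types equal means, unlike the data, so its rates do not carry over to the calls made here. Alternatives were DESeq2 1.42.0, limma 3.58.1 on log2(TPM + 0.1) and log2(TPM + 1), other scaling and filters, batch 2 libraries, coding transcripts only, a replicate block and leaving out each library. Tables were handled in Python 3.11.15 with pandas 2.3.3, numpy 2.4.6 and scipy 1.17.1.

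The members and gene lists were chosen with earlier results of these data known. Genes named were the 9 members, the 4 genes of each list with the highest TPM in microglia, the whole TREM2 and TYROBP list, the cell type markers and the 10 genes most alike in pattern. Some genes that this rule names are not reported here. Genes that make up a small count were named after their values were seen. Gene positions are from GENCODE M21 (versioned gene identifiers matched for all 9), and promoters from RefSeq GRCm38.p6, which held 5 of 9.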

Additional observations from a re-analysis of the deposited data

How the results depend on the processing

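Under every alternative run, 9 of 9 genes were higher in microglia than in the mean of the other cell types, than in astrocytes and than in layer V neurons, and 9 of 9 differed among the other 5 cell types. The 243 alternative fold changes of the members against the other cell types kept their direction and stayed past the threshold, at log2 7.64 to 11.95. Of the 45 neighbouring pairs, 27 to 31 differed (27 to 30 when a library was left out). The median trace moved with the unit: in dentate gyrus granule cells it was 0.107% from TMM-scaled CPM and 0.0745% from protein-coding transcripts, against 0.0568%, and in cerebellar granule cells 0.0121% with the batch 2 library and 0.0065% from protein-coding transcripts, against 0.0105%. For these medians only microglia libraries were left out, which changes just the level that traces are set against. Leaving out 1 gave 0.346 to 0.352% in astrocytes, 0.0510 to 0.0527% in layer V neurons and 0.0558 to 0.0583% in dentate gyrus granule cells. It gave 0.0643 to 0.0664% in interneurons and 0.0103 to 0.0108% in cerebellar granule cells. Between the libraries of a cell type the median varied more: 0.283 to 0.396% in astrocytes, 0.0485 to 0.0641% in layer V neurons and 0.0485 to 0.0804% in dentate gyrus granule cells. It was 0.0520 to 0.0898% in interneurons and 0.00733 to 0.0102% in cerebellar granule cells. Of the members, 7 to 8 were higher in astrocytes than in layer V neurons, 8 without layer V replicate 2, when Aif1 passed at 0.45. Within batch 2, which leaves 1 library in each of these groups, whose spread was taken from the other groups, the Aif1 difference reversed to -0.23 (not past the threshold), while for Cd68 the range over all alternatives was -0.41 to -0.08. The alternatives for interneurons over layer V neurons were added after seeing the data. Within batch 2, with 1 layer V library, Siglech moved from 0.82 to 0.31 and Selplg reversed from 0.61 to -0.07. Direction and call were unchanged in 24 of 27 alternatives for Siglech and in 24 of 27 for Selplg. For Cd68 and Trem2 they were unchanged in all 27, and for Aif1 in all but limma on log2(TPM + 0.1). The causes were not tested. Same-numbered replicates of different cell types deviated together with a median r of 0.081 (-0.08 to 0.193, 45 pairs), so the numbers were not taken to pair samples. With the replicate block, 9 of 9 genes were higher in microglia in each comparison, 30 neighbouring pairs differed and 7 of 9 genes were higher in astrocytes than in layer V neurons. Members below 1 TPM rest on few counts.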
